A study of Homo sapiens with 20 samples.

Results

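The 55 mitosis genes described here encode proteins that take a cell from the start of chromosome condensation to the separation of its daughters. They were chosen by name, with earlier results of these data known, and 1 entry was kept per gene identifier. All 55 were found in each of 3 deposited count tables, among 55093, 55093 and 34213 genes. Each of the 55 also passed the low-count filter, so that the same genes were tested in every table, among 21908, 21328 and 15924 genes in all. By role they were 10 genes of mitotic entry, 5 of the spindle checkpoint, 5 of anaphase onset, 4 of the chromosomal passenger complex, 7 of the centromere and kinetochore, 9 kinesin motors, 5 of spindle assembly, 4 of cytokinesis and 6 of chromosome structure.

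RNA came from HEL, 1 human erythroleukaemia cell line that the labels describe as JAK2 V617F mutant, so every group carries this JAK2 allele. In the BCI table, cells received solvent (DMSO) or BCI at 1 µM for 4 h or 48 h. BCI blocks the dual-specificity phosphatases DUSP1 and DUSP6. In the BI-D1870 table, the 3 groups at 24 h were DMSO, BI-D1870 at 10 µM, which blocks the RSK kinases, and both agents together, with BCI at 1 µM. In the persistent table, parental cells stood beside RuxP and FedP, cells that had become ruxolitinib-persistent or fedratinib-persistent in long culture with a JAK2 inhibitor. Each of the 10 groups held 2 libraries, and no source used here says whether the 2 came from separate cultures or how many persistent lines were derived. The p-values therefore measure only the spread between these libraries, which may be technical.

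As background, entry into mitosis is driven by the kinase CDK1 with its cyclins, helped by PLK1 and the Aurora kinases. The spindle checkpoint (BUB1, BUB1B, MAD2L1, TTK) holds the cell until every kinetochore is attached, and CDC20 and the anaphase-promoting complex then release the sister chromatids by freeing separase (ESPL1) from securin (PTTG1). Most of these genes are transcribed late in the cell cycle, under MYBL2, FOXM1 and the MuvB complex, which act through short promoter elements. Their RNA is therefore widely used as a readout of how many cells in a culture are dividing. In bulk RNA, fewer dividing cells and less RNA per dividing cell cannot be told apart.

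Levels are given as CPM, counts scaled to the library's total with TMM factors, and differences as log2 fold changes with their standard errors (SE). Calls were made at a Benjamini-Hochberg adjusted p under 0.05 over all genes of a table in edgeR's quasi-likelihood test. Libraries held 51799814 to 84452743 counts, and the mitosis genes took 0.368 to 0.536% of the counts in the BCI table, 0.843 to 0.967% in the BI-D1870 table, and 0.129 to 0.498% in the persistent table. Per kilobase of exon, CDC20 was the most abundant of the 55 in DMSO cells at 4 h, at 120 CPM per kb, followed by TPX2, which targets Aurora A to the spindle, at 82.1, and TOP2A, the topoisomerase that untangles sister DNA, at 43.1. CDC25C, a phosphatase that activates CDK1, was the least abundant, at 1.18 CPM per kb. All 12 HEL identity genes (erythroid, megakaryocyte and progenitor genes known for this line) had counts in every group. Among the 55, 19 share exon bases with a gene on the opposite strand, 12 of them with a protein-coding gene. Whether counting used strand is not given in the sources used here, and the reads of such pairs may be mixed.

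**Figure D1:**
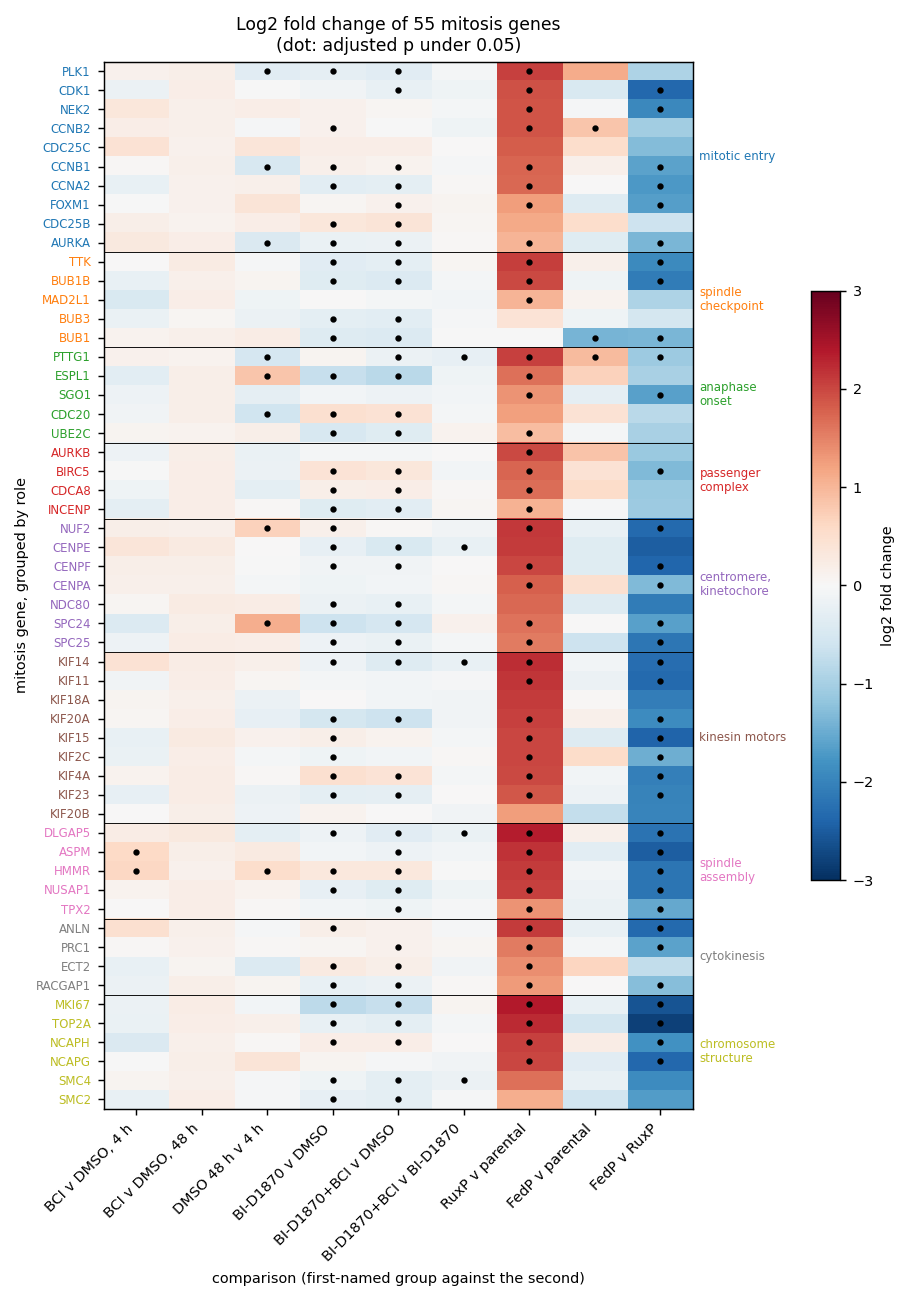
Log2 fold change of each of the 55 mitosis genes (rows, grouped and coloured by role) in 9 comparisons (columns). Red is higher and blue lower in the first-named group, and a dot marks an adjusted p under 0.05 in edgeR's test. The RuxP column is red for all genes but BUB1, with 44 dots, and the BCI column at 48 h has none.

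The largest median difference from a control was in ruxolitinib-persistent cells, where nearly the whole set stood higher than in parental cells. In RuxP, 44 of the 55 passed as higher and 0 as lower, which is 80% of them. Of all genes tested, 4.28% were called higher and 2.17% lower, 6.44% in all. The median log2 fold change was 1.86 over the 55 and -0.04 over all genes tested. Both RuxP libraries stood above both parental libraries for 54 of the 55, where 24% of all genes did. The 55 took 0.129 and 0.166% of the counts in parental libraries, 0.498 and 0.431% in RuxP and 0.144 and 0.148% in FedP. In DMSO cells they took 0.368 to 0.503% in the BCI table and 0.927 to 0.967% in the BI-D1870 table. Parental and FedP shares thus lay below every DMSO library, and RuxP within the DMSO range of the BCI table. The tables were not scaled to each other, and the cause of the low parental share was not tested. MKI67, which coats mitotic chromosomes and encodes the Ki-67 antigen, had 53.8 and 72.9 CPM in the parental libraries and 359 and 299.9 in RuxP, a log2 fold change of 2.38 (SE 0.21, adjusted p = 0.00445). Both RuxP libraries lay above both parental ones. KIF11, the kinesin that pushes the spindle poles apart, had 12.5 and 16.1 CPM in parental cells and 67.2 and 59.7 in RuxP, a log2 fold change of 2.15 (SE 0.19, adjusted p = 0.00445). CDC20, the activator of the anaphase-promoting complex, had 54.9 and 29.0 CPM in parental cells and 83.2 and 114 in RuxP, and its log2 fold change of 1.23 (SE 0.32) missed the threshold at an adjusted p of 0.0808. The groups did not overlap for CDC20 either, but its parental libraries lay far apart from each other.

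Among the 10 genes of mitotic entry, 8 passed as higher in RuxP. CDK1 had 10.1 and 21.4 CPM in parental libraries and 67.0 and 51.0 in RuxP (log2 fold change 1.91, SE 0.36, adjusted p = 0.0358). CCNB1, cyclin B1, had 10.9 and 10.1 CPM against 34.2 and 36.8 (1.75, SE 0.16, adjusted p = 0.00459). These are kinase and cyclin of the same complex, and in both the 2 groups were clearly separate, with the parental CDK1 libraries the more scattered pair. PLK1, a kinase of entry and of the spindle, had 27.2 and 14.3 CPM against 76.1 and 95.0 (2.04, adjusted p = 0.0201). AURKA, which matures the centrosomes, had 14.3 and 14.3 CPM against 26.7 and 31.6 (1.03, adjusted p = 0.0212), and FOXM1, a transcription factor of late cell cycle genes, had 24.8 and 18.1 against 41.3 and 60.8 (1.25, adjusted p = 0.0417). For all 3 the groups stayed apart, although the parental PLK1 libraries differed widely from each other. The 2 phosphatases CDC25B and CDC25C were higher in both RuxP libraries without passing, with adjusted p of 0.0712 and 0.0744.

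BUB1 was the exception. This checkpoint kinase had 167 and 199.9 CPM in the parental libraries and 177 and 185 in RuxP, and its log2 fold change was -0.02 (SE 0.16, adjusted p = 0.946). The RuxP libraries lay between the parental ones. Per kilobase of exon, BUB1 stood second to TPX2 in parental cells, at 30.4 against 39.0 CPM per kb. The other checkpoint genes spread widely. BUB1B and TTK passed with log2 fold changes of 1.99 and 2.07, MAD2L1 with 1.02, and BUB3, which also works outside the checkpoint, had 0.41 and did not pass. BUB1 lies on chromosome 2 from 110637698 to 110678114 on the minus strand of GRCh38, and none of its exon bases are shared with another gene in GENCODE 29.

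In the remaining roles, 4 of 5 genes of anaphase onset, 4 of 4 of the chromosomal passenger complex, 5 of 7 of the centromere and kinetochore, 7 of 9 kinesins, 5 of 5 of spindle assembly, 4 of 4 of cytokinesis and 4 of 6 of chromosome structure passed as higher in RuxP. AURKB, the kinase of the passenger complex, had 9.66 and 6.18 CPM in parental libraries and 25.2 and 37.5 in RuxP (1.98, adjusted p = 0.0175). TOP2A had 95.9 and 186 CPM against 798 and 534 (2.24, SE 0.36, adjusted p = 0.0209). Neither gene's groups overlapped, though the 2 parental TOP2A libraries differed widely from each other. DLGAP5, which bundles spindle microtubules, had 5.41 and 9.11 CPM against 40.1 and 34.0 (2.35). KIF14, a kinesin of cytokinesis, had 8.54 and 13.7 against 59.0 and 43.6 (2.21), and ASPM, a spindle pole protein, 23.4 and 39.1 against 164 and 116 (2.16). With MKI67 and TOP2A, these were the 5 largest rises among the genes that passed. The smallest median by role, 1.02, was that of the spindle checkpoint and the largest, 2.10, that of spindle assembly.

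**Figure D2:**
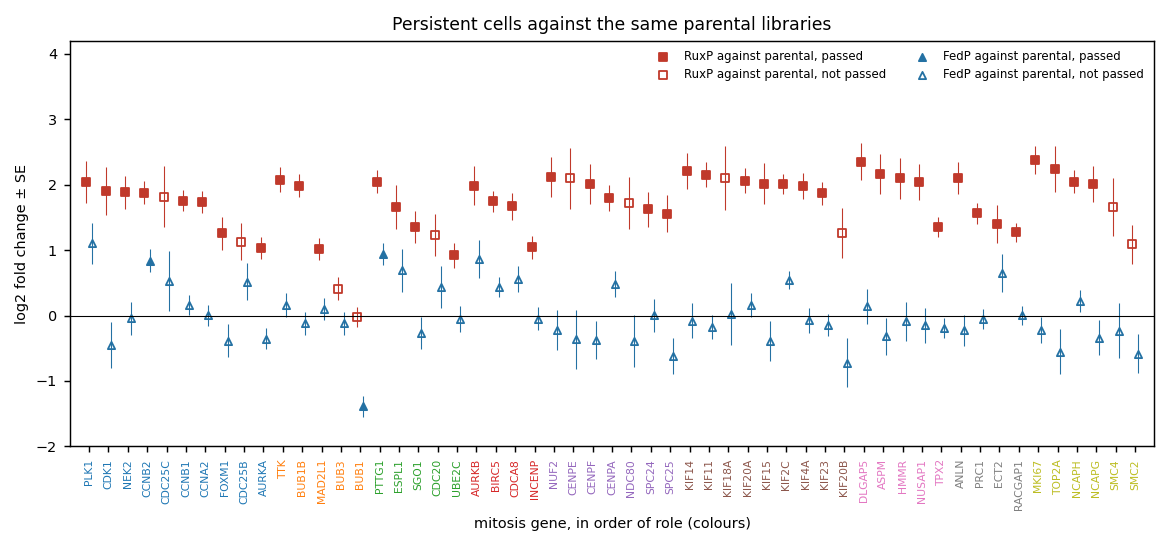
Log2 fold change with SE (vertical axis) of the 55 mitosis genes (horizontal axis, in order of role) in RuxP (squares) and FedP (triangles), each against the same 2 parental libraries. Filled symbols passed at an adjusted p under 0.05. RuxP values reach 2.38 (MKI67) and are lowest for BUB1 at -0.02, while FedP values lie on both sides of 0, with BUB1 lowest at -1.39.

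The RuxP count moved with single libraries. Without RuxP replicate 1, 15 of the 55 passed, and without RuxP replicate 2, 27 passed, while leaving out a parental library gave 50 (replicate 1) or 52 (replicate 2). MKI67, KIF11, CCNB1, BUB1B, TTK, KIF2C and NCAPH were among the 15 that passed with any 1 of these 4 libraries left out, whereas CDK1, PLK1, AURKA, AURKB, FOXM1 and TOP2A did not pass without either RuxP library.

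The promoters of the set were read for short elements known for late cell cycle genes. RefSeq windows of GRCh38.p14 were used, which run from 250 bases before to 50 after each start site. The genes were chosen as mitosis genes, so the shares of these elements describe that choice and would be the same without the RuxP data. Windows were found for 47 of the 55 genes, 59 windows in all, since 8 genes have more than 1. For the CHR element (cell cycle genes homology region), to which MuvB binds, the forms TTTGAA and TTTAAA were searched on both strands. The CCAAT box, bound by NF-Y, was searched as CCAAT. Other spellings of the CHR element were not searched, so a gene without a CHR form here lacks only these strings. The TTTGAA form was in 62.7% of the windows and in 15.2% of all 35116 promoter windows, and TTTAAA in 28.8% and 12.2%. CCAAT was in 71.2% against 34.6%, and the unrelated TTTGAC in 5.08% against 8.27%. At least 1 CHR form and a CCAAT box stood together in 55.9% of the windows and in 9.27% of all. By gene, 41 of the 47 held a CHR form, and in 40 it began between 75 bases before and 50 after the start. The windows had a median GC content of 61.3%, beside 58.7% for all. Of the 41 genes with a CHR form, 32 passed as higher in RuxP with a median log2 fold change of 1.99, and of the 6 without, 5 passed with a median of 1.68. BUB1 was 1 of the 6, with a CCAAT box in its window. A match is only a match of letters.

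The windows of 4 genes holding a CHR form with the lowest adjusted p in RuxP show how these elements lie, with CHR and CCAAT matches in capitals. KIF2C came first, and MKI67, KIF11, NCAPH and PTTG1 tied at an adjusted p of 0.00445, of which the 3 with the larger log2 fold change were taken. KIF2C (chr1:44739587-44739886, plus strand), a kinesin that takes apart microtubule ends, had 29.5 and 32.1 CPM in parental cells and 122 and 126 in RuxP. It has a TTTAAA that begins 3 bases before the start site. MKI67 (chr10:128126374-128126673, minus strand) has TTTGAA at 47 and at 29 bases before the start, the second of which shares a base with a reversed CCAAT box. KIF11 (chr10:92592880-92593179, plus strand) has a reversed TTTGAA 28 bases and a reversed CCAAT 53 bases before the start. NCAPH (chr2:96335516-96335815, plus strand), a condensin subunit with 14.5 and 11.8 CPM in parental cells and 55.5 and 53.2 in RuxP, has a CCAAT 112 bases before and a TTTAAA 33 bases after the start.
KIF2C: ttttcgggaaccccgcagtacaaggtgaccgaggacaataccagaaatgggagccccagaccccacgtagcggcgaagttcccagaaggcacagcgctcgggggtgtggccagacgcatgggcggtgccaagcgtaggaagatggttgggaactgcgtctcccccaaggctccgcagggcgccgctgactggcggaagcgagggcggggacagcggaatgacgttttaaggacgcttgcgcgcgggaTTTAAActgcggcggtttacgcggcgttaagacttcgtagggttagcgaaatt
MKI67: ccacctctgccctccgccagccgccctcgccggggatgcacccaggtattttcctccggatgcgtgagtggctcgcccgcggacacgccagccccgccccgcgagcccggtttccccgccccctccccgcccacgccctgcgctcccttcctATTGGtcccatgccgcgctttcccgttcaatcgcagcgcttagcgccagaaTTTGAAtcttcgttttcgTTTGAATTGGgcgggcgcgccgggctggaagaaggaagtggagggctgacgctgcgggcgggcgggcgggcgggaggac
KIF11: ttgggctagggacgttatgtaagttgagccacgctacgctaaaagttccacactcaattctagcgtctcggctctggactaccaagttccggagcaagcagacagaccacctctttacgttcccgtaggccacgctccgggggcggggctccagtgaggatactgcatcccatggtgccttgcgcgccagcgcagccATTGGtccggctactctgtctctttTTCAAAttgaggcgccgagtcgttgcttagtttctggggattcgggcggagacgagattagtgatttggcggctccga
NCAPH: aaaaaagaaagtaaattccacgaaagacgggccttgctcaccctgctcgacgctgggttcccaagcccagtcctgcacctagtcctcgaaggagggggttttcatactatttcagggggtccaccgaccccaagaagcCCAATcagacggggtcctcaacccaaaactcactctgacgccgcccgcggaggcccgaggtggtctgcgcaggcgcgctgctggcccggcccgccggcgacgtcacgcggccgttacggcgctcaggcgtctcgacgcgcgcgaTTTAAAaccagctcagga

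Other lists moved in the same direction in RuxP. Of 99 other mitosis genes tested, 39 passed as higher and 0 as lower, with a median log2 fold change of 0.83, led by MELK (2.49), a kinase of dividing cells. Of 48 DNA replication genes, 36 passed as higher and 0 as lower, with a median of 1.35, among them CDC45, part of the replicative helicase (2.07). MYBL2, the activator of late cell cycle genes, had 16.5 and 11.7 CPM in parental cells and 38.5 and 46.6 in RuxP (1.60, adjusted p = 0.0146). LIN54, the MuvB subunit that binds DNA, had a log2 fold change of 0.45 and did not pass. The cell cycle inhibitor CDKN1A stood at 1.06 and 0.465 CPM in parental cells and 0.523 and 1.30 in RuxP, with overlapping groups.

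Several other measures moved with the RuxP rise, and their part in it was not tested. The summed level of the 12 HEL identity genes was 3737 to 4684 CPM in parental cells and 2438 to 2562 in RuxP, with 4 of the 12 called lower and 2 called higher. The 12 epithelial and stromal markers summed to 722 to 726 CPM in parental cells and 233 to 242 in RuxP, and in RuxP CDH1, COL1A2 and KRT19 were at 0. That fall was 1 gene, the endothelial and platelet adhesion gene PECAM1, at 702 and 708 CPM in parental cells and 205 and 207 in RuxP, while the keratin gene KRT8 stood higher, at 9.69 and 8.43 and 17.1 and 17.5. The 10 monocyte and granulocyte markers summed to 60.8 to 63.4 and 56.7 to 59.1 CPM, with ELANE at 0 in RuxP, and the 10 lymphoid markers to 11.4 to 12.7 and 9.03 to 13.3, with CD3D, CD3E, TRAC and MS4A1 at 0. The 2 parental libraries themselves differed by up to 2.75 times in a mitosis gene. Across the 55 genes the log2 ratio of replicate 1 to replicate 2 had a Pearson correlation with GC content of 0.86 in parental cells and -0.78 in RuxP, a description over genes that share 2 libraries. With GC and length trends removed from each library, 53 of the 55 passed in RuxP and the median log2 fold change was 1.75.

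**Figure D3:**
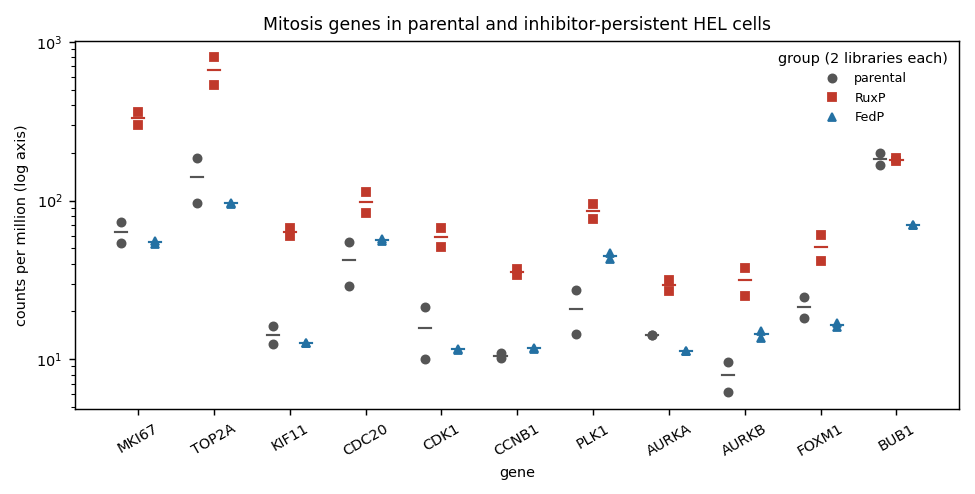
CPM on a log axis of 11 mitosis genes in each library of the persistent table, with parental cells as circles, RuxP as squares, FedP as triangles and a short line at each mean of 2. RuxP stands above the other groups in every gene but BUB1, where the parental and RuxP libraries overlap and FedP lies lower.

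In fedratinib-persistent cells, compared with the same parental libraries, most mitosis genes showed no called difference. PTTG1 and CCNB2 passed as higher and BUB1 as lower, and 52 of the 55 did not pass. That is 5.45% called, where 6.63% of all genes were (3.84% higher and 2.79% lower). By non-overlap alone, 15 of the 55 were higher and 7 lower in FedP, where 33% and 30% of all genes were. The median log2 fold change was -0.07 over the 55 and 0.01 over all genes. MKI67 had 53.4 and 55.5 CPM in FedP, overlapping the parental libraries, and a log2 fold change of -0.22 (SE 0.20). KIF11 had 12.6 and 12.7 CPM and CDC20 55.6 and 57.4 CPM in FedP, with log2 fold changes of -0.18 and 0.43, neither past the threshold.

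BUB1, which had not passed in RuxP, had 70.1 and 70.2 CPM in FedP, a log2 fold change of -1.39 against parental cells (SE 0.16, adjusted p = 0.00904). Both FedP libraries lay far below both parental ones. PTTG1, securin, had 6.33 and 6.22 CPM in parental cells and 12.1 and 12.0 in FedP (0.94, SE 0.17, adjusted p = 0.031). CCNB2, cyclin B2, had 9.46 and 10.9 CPM against 17.5 and 18.9 (0.84, SE 0.17, adjusted p = 0.0412). Both stood higher in FedP with no overlap. PLK1 had the highest log2 fold change of the 55 in FedP, with libraries at 46.7 and 42.8 CPM (1.11, SE 0.31), but missed the threshold at an adjusted p of 0.0948. CDK1 and TOP2A stood at 11.4 and 11.6 and at 94.8 and 97.0 CPM, with log2 fold changes of -0.45 and -0.55 that did not pass. CCNB1, AURKA, AURKB and FOXM1 had 11.9 and 11.6, 11.2 and 11.2, 15.2 and 13.7 and 16.8 and 15.9 CPM in FedP. None of these 4 passed.

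Other lists gave few calls in FedP. Of the other mitosis genes 0 passed as higher and 2 as lower of 99, and of the DNA replication genes 2 passed as higher and 1 as lower of 48. The epithelial and stromal markers, at 722 to 726 CPM in parental cells, summed to 173 to 186 in FedP, with DCN, CDH1, COL1A2 and COL3A1 at 0. PECAM1 made this fall, with 128 and 122 CPM in FedP, while KRT8 (34.2 and 29.8), KRT18 (8.98 and 7.38 in parental cells, 18.6 and 17.1 in FedP) and PDGFRB (0.104 and 0.523, then 3.34 and 3.08) stood higher. The HEL identity genes summed to 3747 to 3821 CPM in FedP, and the part of these markers in the calls was not tested. The calls of PTTG1, CCNB2 and BUB1 were lost without either FedP library. With 1 library of the table left out, the median log2 fold change of the 55 ran from -0.20 (without parental replicate 1) to 0.12 (without parental replicate 2).

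FedP and RuxP were also compared directly. All 55 mitosis genes were lower in FedP than in RuxP with no overlap of the libraries, where 35.7% of all genes were lower and 40.3% higher in this way. In the test, 36 of the 55 passed as lower and 0 as higher, which is 65.5%, beside 1.16% and 0.232% of all genes (1.39% either way). The median log2 fold change was -1.73 over the 55 and 0.04 over all genes. The largest called falls were those of TOP2A (-2.80, SE 0.36, adjusted p = 0.032), MKI67 (-2.60, SE 0.21, adjusted p = 0.0183), ASPM (-2.48), KIF15, a spindle kinesin (-2.40), and CENPF, a kinetochore protein (-2.38). For KIF15 the libraries held 36.7 and 30.6 CPM in RuxP and 6.28 and 6.42 in FedP, and for CENPF 244 and 177 and 38.0 and 43.0. In both the RuxP libraries stood apart from FedP. Spindle assembly genes had the lowest median (5 of 5 called, median -2.19). Next came the centromere and kinetochore and the chromosome structure genes, and then the kinesins (7 of 9, median -2.06). The passenger complex (1 of 4, median -1.11) and anaphase onset genes (2 of 5, median -0.97) had the higher ones. These role medians were not tested against each other. BUB1 passed too, at -1.37 (adjusted p = 0.0272). MYBL2 passed as lower in FedP (-1.61, adjusted p = 0.0376). Of the other mitosis genes 28 of 99 and of the DNA replication genes 26 of 48 passed as lower, and 0 of either as higher. Without any 1 of the 4 RuxP and FedP libraries, 0 of the 55 and 0 of all genes passed, and without parental replicate 1 or 2, 55 or 54 of the 55 did.

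The RSK inhibitor BI-D1870 gave small shifts in both directions, in libraries whose replicates lay close together. At 24 h, 13 of the 55 passed as higher and 26 as lower, beside 22.8% and 24.3% of all genes. These are 23.6% and 47.3% of the 55, so that the share called higher lay near that of all genes and the share called lower was larger. Called either way were 70.9% of the 55 and 47.1% of all genes. The median log2 fold change was -0.10 over the 55 and -0.01 over all genes, and no mitosis gene moved by as much as 1. MKI67 had 838 and 804 CPM in DMSO and 488 and 468 in BI-D1870, a log2 fold change of -0.78 (SE 0.040, adjusted p = 5.17e-12), the largest fall. CDC20 had 334 and 326 CPM in DMSO and 461 and 466 in BI-D1870, 0.49 (SE 0.037, adjusted p = 1.35e-09), the largest rise. KIF11 had 177 and 166 CPM against 166 and 166, -0.05 (SE 0.043), which did not pass. So the 3 marker genes of the set did 3 different things, and of these only KIF11 overlapped between the groups.

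**Figure D4:**
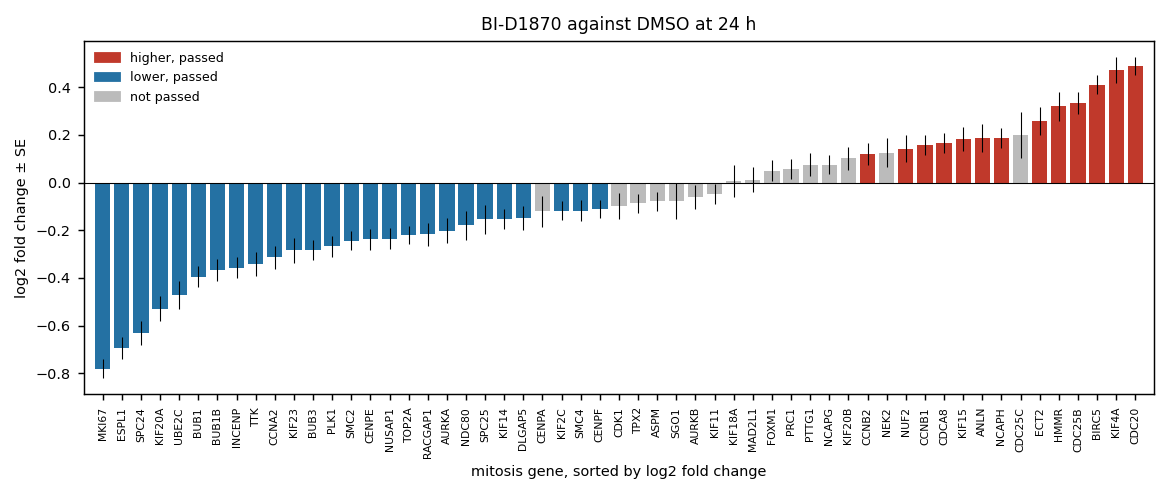
Log2 fold change with SE of each of the 55 mitosis genes in BI-D1870 against DMSO at 24 h, sorted from the lowest to the highest. Blue bars passed as lower (26 genes), red bars as higher (13) and grey bars did not pass (16). Values run from -0.78 for MKI67 to 0.49 for CDC20.

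The falls included most checkpoint genes and, in anaphase onset, ESPL1 and UBE2C. The other genes of anaphase onset did not fall with them: CDC20 rose, and PTTG1 (0.07) and SGO1 (-0.08) did not pass. ESPL1, separase, had 172 and 169 CPM in DMSO and 108 and 103 in BI-D1870 (-0.69, adjusted p = 3.09e-10). UBE2C, the ubiquitin-conjugating enzyme of the anaphase-promoting complex, had 43.8 and 42.4 CPM against 30.7 and 31.3 (-0.47, adjusted p = 1.22e-06). Both were lower in both treated libraries. Of the 5 checkpoint genes 4 fell, BUB1 from 589 and 527 CPM to 425 and 424 (-0.39), with BUB1B (-0.37), TTK (-0.34) and BUB3 (-0.28). MAD2L1 had 0.01 and did not pass. Of the 7 centromere and kinetochore genes 5 were called lower and NUF2 higher (0.14). SPC24 fell from 101 and 102 CPM to 63.1 and 67.5 (-0.63), and with CENPE (-0.24) it held its call with any 1 of the 4 libraries compared left out. The call of NUF2 was lost without DMSO replicate 2 or BI-D1870 replicate 1, that of NDC80 (-0.18) without DMSO replicate 1 or BI-D1870 replicate 2, that of CENPF (-0.11) without either DMSO library or BI-D1870 replicate 2, and that of SPC25 (-0.15) without any 1 of the 4.

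Among the kinesins, KIF20A, a motor of cytokinesis, fell from 105 and 95.9 CPM to 70.6 and 68.5 (-0.53, adjusted p = 6.92e-08), while KIF4A, a motor on chromosome arms, rose from 81.1 and 76.7 to 116 and 103 (0.47, adjusted p = 4.48e-07). In the passenger complex, BIRC5, survivin, rose from 140.5 and 140.3 CPM to 184 and 189 (0.41, adjusted p = 4.64e-08) and CDCA8 rose (0.16), INCENP fell (-0.36), and AURKB had 73.2 and 75.0 CPM against 69.9 and 72.2 and did not pass. So members of 1 complex moved in opposite directions. CDC25B rose from 89.4 and 82.3 CPM to 108 and 108 (0.33) and HMMR, a spindle protein, from 103 and 94.1 to 129 and 117 (0.32). In mitotic entry, 3 genes rose and 3 fell. CCNB1 rose from 117 and 114 CPM to 131 and 127 (0.16, adjusted p = 0.00433), whereas PLK1 fell from 202 and 188 to 162 and 161 (-0.27, adjusted p = 2.54e-05) and AURKA from 61.8 and 58.1 to 52.4 and 51.8 (-0.20, adjusted p = 0.00303). CDK1, at 114 and 99.6 CPM in DMSO and 102 and 97.2 in BI-D1870, and FOXM1, at 165 and 156 and 167 and 165, did not pass. TOP2A fell from 778 and 731 CPM to 657 and 639.5 (-0.22, adjusted p = 8.34e-05), as did SMC2 and SMC4 of condensin (-0.24 and -0.12), whereas NCAPH rose (0.19). The call of CCNB1 was lost without BI-D1870 replicate 1, that of AURKA without DMSO replicate 1 or BI-D1870 replicate 2, and that of SMC4 without any of these 3.

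Of the 39 called genes, 26 passed with any 1 of the 4 libraries compared left out, and these included all 5 of the largest falls and all 5 of the largest rises. Other lists also split under BI-D1870: 35 of 99 other mitosis genes passed as higher, led by TUBB4B, a tubulin (1.34), and 29 as lower, whereas 7 of 48 DNA replication genes passed as higher and 29 as lower, led by MCM2, a helicase subunit (-1.13). MYBL2 fell from 252 and 248 CPM to 207 and 206 (-0.28), and CDKN1A rose from 3.43 and 3.67 to 10.8 and 9.64 (1.52). The HEL identity genes summed to 5611 to 5760 CPM in DMSO and 4670 to 4755 in BI-D1870, with 9 of 12 called lower and 3 higher. The fetal globin gene HBG2 had 2477 and 2658 CPM in DMSO and 1809 and 1836 in BI-D1870, and EPOR, the erythropoietin receptor, 39.0 and 43.0 and 72.6 and 73.2. The epithelial and stromal markers summed to 245 to 252 and 106 to 112 CPM, with DCN, EPCAM and COL1A2 at 0 under BI-D1870. PECAM1 carried that fall, at 219 and 216 and 89.5 and 81.2 CPM, while KRT8 stood higher, at 7.42 and 5.57 and 9.72 and 9.64. The lymphoid markers summed to 37.1 to 40.0 and 12.9 to 13.0, with MS4A1 and CD3D at 0. Their part in the result was not tested.

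BI-D1870 with BCI, against the same DMSO libraries, gave 11 mitosis genes called higher and 29 lower, beside 22.6% and 24.3% of all genes (46.8% either way), with a median log2 fold change of -0.16. The largest called falls were in ESPL1 (-0.81), MKI67 (-0.70), KIF20A (-0.63), SPC24 (-0.51) and CENPE, a kinetochore motor (-0.47), and the largest rises in CDC20 (0.44), KIF4A (0.41), CDC25B (0.39), BIRC5 (0.33) and HMMR (0.31). MKI67 had 492 and 518 CPM and CDC20 451 and 446 under both agents, each with no overlap with DMSO. Under both agents the HEL identity genes summed to 3791 to 4127 CPM, below both DMSO and BI-D1870 alone, with HBG2 at 1039.6 and 1281, and the lymphoid markers to 14.4 to 14.5, below DMSO. The part of these in either comparison was not tested.

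Whether BCI added to BI-D1870 was asked of those 2 groups directly. Only 5 of the 55 passed, all lower with BCI, beside 2.48% of all genes called lower and 2.22% called higher, 4.71% in all. The 5 were PTTG1, from 70.8 and 72.7 CPM to 60.7 and 60.3 (-0.25, SE 0.049, adjusted p = 0.00422), KIF14, from 118 and 121 to 102 and 102 (-0.23, adjusted p = 0.00269), and CENPE, from 131 and 135 to 115 and 111 (-0.23, adjusted p = 0.0053), with DLGAP5 (-0.19) and SMC4 (-0.17). None of these 5 overlapped between groups. By non-overlap alone, 26 of the 55 were lower and 11 higher with BCI, where 23% and 23.8% of all genes were. MKI67, KIF11 and CDC20 had log2 fold changes of 0.08, -0.04 and -0.05, and none passed. The count fell to 0 without BI-D1870 replicate 2, to 1 without replicate 2 of the pair and to 3 without BI-D1870 replicate 1.

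BCI alone left most of the set without a called difference. At 4 h, HMMR and ASPM passed as higher and 0 of the 55 as lower, beside 4.8% and 5.94% of all genes (10.7% either way). HMMR had 21.3 and 21.7 CPM in DMSO and 32.0 and 34.3 in BCI (0.62, SE 0.14, adjusted p = 0.0245), and ASPM 77.2 and 72.9 against 104 and 122 (0.59, SE 0.16, adjusted p = 0.0481). Both are spindle proteins, and in both the BCI libraries lay clearly above DMSO. MKI67 had 362 and 354 CPM in DMSO and 305 and 327 in BCI, KIF11 61.1 and 57.7 and 50.5 and 59.4, and CDC20 239 and 251 and 227 and 226. MKI67 and CDC20 were lower in both BCI libraries and KIF11 overlapped, but none of the 3 passed, with log2 fold changes of -0.18, -0.11 and -0.11. An unadjusted p under 0.05 was reached by 9 of the 55, where 10.7% of all genes passed even at the adjusted threshold. By non-overlap alone, 19 of the 55 were higher and 21 lower in BCI, where 30.4% and 28.5% of all genes were. In the other lists, 11 of 48 DNA replication genes passed as lower and 0 as higher, with a median log2 fold change of -0.42, against 0.02 for the 55, and CDKN1A rose from 10.5 and 11.2 CPM to 27.6 and 21.7 (1.18). The 12 HEL identity genes summed to 4879 to 5010 CPM in DMSO and 4810 to 4936 in BCI, and the 10 lymphoid markers to 32.7 to 35.4 and 72.5 to 74.6, with MS4A1, CD3D, CD3E and TRAC at 0 in BCI. That rise was 1 gene, the cytokine receptor IL7R, at 13.7 and 14.1 CPM in DMSO and 55.9 and 52.3 in BCI, while CD79A (7.13 and 7.88 and 7.21 and 7.85) and CD2 (9.14 and 10.8 and 8.63 and 10.0) overlapped. Their part was not tested. The count of 2 depended on which libraries shared the fit. It was 27, of which 12 higher and 15 lower, when only the 4 h groups entered. The share of all genes called in that fit is not given here, so the 27 cannot be read as particular to the set. The calls of HMMR and ASPM were lost without any 1 of the 4 libraries compared. With 1 library of the table left out, the median log2 fold change of the 55 ran from -0.04 to 0.07.

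At 48 h, 0 of the 55 passed under BCI and 0 of all genes did, so the percentages called were 0 and 0. At an unadjusted p under 0.05 there was 1 of the 55 and 316 of all genes, and DESeq2 and limma-voom also called 0 of the 55. All 55 log2 fold changes were above 0, with a median of 0.18 and a range from 0.06 to 0.30, while the median of all genes was 0.01. MKI67 had 411 and 265 CPM in DMSO and 452 and 336 in BCI, and the groups overlapped. KIF11 (73.3 and 51.2 against 82.6 and 59.9) overlapped as well, while CDC20 (172 and 154 against 192 and 175) did not. Only 3 of the 55 did not overlap between DMSO and BCI, all higher, where 10.8% of all genes were. The sign of the median changed with 1 library: it was -0.05 without DMSO replicate 2 and 0.43 without DMSO replicate 1.

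The 2 replicates of each 48 h group stood apart in the whole set. All 55 genes were higher in replicate 1 than in replicate 2, in DMSO and in BCI alike. The median ratio was 1.38 in DMSO and 1.27 in BCI, while over all genes it was 0.997 and 1.00. CDK1 had 51.8 and 32.1 CPM in the DMSO libraries and 55.7 and 40.6 in BCI, and AURKB 66.4 and 44.4 and 67.7 and 58.3, so that the gap between replicates exceeded that between treatments. In no other group were all 55 on the same side. Same-numbered DMSO and BCI libraries of 48 h deviated together, with a correlation of 0.32 over all genes and 0.77 over the 55. The main test had no replicate block, so this shared gap counted as spread in it. Within each replicate number, MKI67, KIF11 and CDC20 were higher in BCI than in DMSO. With such a block and only the 48 h groups, 1 of the 55 passed. The difference of the BCI effect between the times, 48 h minus 4 h, was called for 0 of the 55 by edgeR, DESeq2 and limma-voom. Of all genes, edgeR called 2.08% higher and 1.37% lower, 3.46% in all. An unadjusted p under 0.05 in edgeR's test was reached by 4 of the 55, and the share of all genes at that cut is not given here. The median log2 fold change of the 55 was 0.37 without DMSO replicate 1 of 48 h and -0.01 without DMSO replicate 2 of 48 h.

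**Figure D5:**
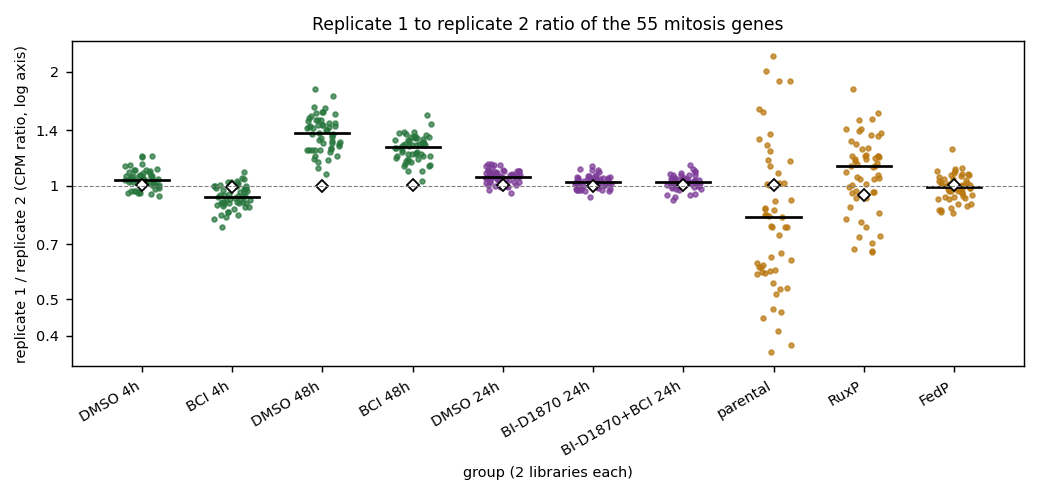
Ratio of replicate 1 to replicate 2 in CPM (log axis) for each of the 55 mitosis genes (points) in each of the 10 groups, with the median of the 55 as a bar and the median of all genes as a diamond. In both 48 h groups all points lie above 1, and in parental cells they spread most.

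DMSO cells themselves changed between 4 h and 48 h. Of the 55, 4 passed as higher at 48 h and 5 as lower, beside 13.5% and 13.2% of all genes (26.6% either way). By non-overlap alone, 11 were higher and 10 lower, where 32.7% and 30.2% of all genes were. SPC24, a kinetochore protein, rose from 27.9 and 29.8 CPM to 75.2 and 48.0 (1.09, SE 0.18, adjusted p = 0.00258). ESPL1 rose from 78.8 and 81.4 CPM to 183 and 101 (0.83, adjusted p = 0.0394), NUF2 from 12.4 and 10.9 to 22.3 and 15.2 (0.68) and HMMR from 21.3 and 21.7 to 35.4 and 26.8 (0.53). Anaphase and entry genes were among the 5 that fell. CDC20 fell from 239 and 251 CPM to 172 and 154 (-0.59, SE 0.083, adjusted p = 0.00119). PTTG1 fell from 30.1 and 31.6 CPM to 25.0 and 18.3 (-0.51), and CCNB1 from 58.7 and 54.1 to 43.8 and 37.2 (-0.48). The kinases AURKA, from 38.7 and 36.5 CPM to 31.0 and 24.9 (-0.43), and PLK1, from 116 and 114 to 98.1 and 84.7 (-0.33), were lower as well. None of these 9 overlapped between the times. Among the 55, 2 passed with any 1 of the 4 libraries compared left out, CDC20 and SPC24. The median log2 fold change of the 55 changed sign with 1 library: it was -0.28 without DMSO replicate 1 of 48 h and 0.22 without DMSO replicate 2 of 48 h.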

How the data were processed

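Bulk RNA-seq of HEL cells (20 libraries, 10 groups of 2) was deposited by the authors as raw gene counts in 3 tables. Per the labels' protocols, RNA was purified on RNeasy columns, treated with DNase, and read on an Illumina NovaSeq instrument. Per the submitters' processing notes, bcl2fastq, STAR 2.5.1a, GRCh38 and edgeR were used. Which program counted reads, with what strand setting and annotation, is not given in the sources used here. Of counts from 1 to 20, 59.8% (RuxP replicate 1) to 73.1% (parental replicate 2) were even. Both reads of a pair may therefore have been counted, which was not tested, and halved counts were tried as an alternative. Columns of the later BCI libraries are headed 24 h while the sample labels say 48 h, and the labels were followed.

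The members and gene lists were chosen with earlier results of these data known. Each table was fitted on its own, since counts were not scaled across tables, with edgeR 4.0.16 in R 4.3.3: filterByExpr, TMM scaling, 1 quasi-likelihood fit with all groups of the table and no block, Benjamini-Hochberg adjustment over all genes tested, and a threshold of 0.05. The SE is the size of the log2 fold change divided by the square root of F. The procedure was tested on simulated data. Exon lengths, positions and overlaps came from GENCODE 29. Comparisons that share a control group share its libraries: RuxP and FedP share the parental ones, BI-D1870 alone and with BCI share DMSO. Any of the 55 could be named; values by library were given for MKI67, KIF11, CDC20, CDK1, CCNB1, PLK1, AURKA, AURKB, BUB1, TOP2A and FOXM1, for the 5 largest called rises and falls of a comparison and for the promoters shown, and CPM of a few further members were added after their values were seen. Alternatives were DESeq2 size factors, DESeq2 1.42.0, limma-voom (limma 3.58.1), no and a stricter filter, halved counts, fewer groups, a replicate block, each library left out, and, added after the data were seen, GC and length trends removed and 2 further blocks. Libraries with the same replicate number deviated together in DMSO and BCI at 48 h (correlation 0.32 over all genes). They did not in every pair of groups, so the numbers were not taken as pairs in the main fits.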

Additional observations from a re-analysis of the deposited data

Results flagged for a closer look

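The mitosis genes differed between the persistent lines in a direct test. In FedP against RuxP, both derived from the same parental line, 36 of the 55 passed as lower in FedP in edgeR's quasi-likelihood test, with a median log2 fold change of -1.73 and all 55 lower without overlap. In the leave-one-out fits 0 passed without any 1 RuxP or FedP library, and 55 or 54 without parental replicate 1 or 2; the cause was not tested. The medians with 1 library left out ran from -1.76 to -1.71.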

How the results depend on the processing

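Counts of mitosis genes called were within 1.5 times of the reported count in 117 of 161 alternatives, and the cause of the other 44 was not tested. A count of 0 where 0 was reported was taken as within, as for BCI at 48 h without any 1 library. Libraries outside a comparison were among those left out, so the 117 is a generous measure of stability. With BCI at 4 h, the count of 2 became 1 with DESeq2 size factors, 1 with limma-voom, 1 with GC and length trends removed, 9 without the low-count filter and 27 with only the groups compared. Without the filter it was 5 for the difference of the BCI effects and 14 for DMSO at 48 h against 4 h, reported as 0 and 9. With GC and length trends removed it was 3 for BCI added to BI-D1870 (reported as 5) and 9 for FedP against parental (reported as 3), which was also 6 with DESeq2 and 1 with only the groups compared. FedP against RuxP gave 55 with only the groups compared, against 36. With the replicate block, where the labels' numbers do not establish pairs, counts were 24 for RuxP against parental, 1 for FedP against parental and 0 for FedP against RuxP, and the block with only the 48 h groups gave 1 for BCI. Same-numbered parental and RuxP libraries deviated in opposite directions (correlation -0.22 over all genes), and a block with crossed numbers, chosen after seeing this, gave 53 calls beside 40 with the numbers as labelled and only those groups. With 1 library left out, counts ran from 0 to 7 for BCI at 4 h, from 0 to 13 for the difference of BCI effects, from 2 to 15 for DMSO at 48 h against 4 h, from 29 to 36 for BI-D1870, from 34 to 39 for BI-D1870 with BCI, from 0 to 5 for BCI added to it, from 15 to 52 for RuxP against parental, from 0 to 17 for FedP against parental and from 0 to 55 for FedP against RuxP. The number of all genes called moved as well between these fits, so such ranges are not particular to the mitosis genes. With 2 libraries a group, a group left with 1 was assumed to vary like the others.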
